A study of Zea mays with 18 samples.

Results

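The genes described here are those of maize (Zea mays) whose transcript level was lower under iron deficiency in roots and also in shoots. RNA-seq had been run on roots and shoots of the wild-type inbred W22, and no other genotype was used. All plants grew in hydroponic culture for 12 days and were then given solution with iron (+Fe, called sufficient here) or without it (-Fe, deficient) for 3 days. Some of the -Fe plants were then moved to 0.1 mM FeSO4-EDTA (resupplied) while the others received fresh solution of their own kind, and organs were frozen 24 hours later, so the deficient plants had spent that day without iron as well. Each of the 6 groups, 3 conditions in each organ, held 3 libraries that the labels call biological replicates, and the labels do not say how many plants went into a library.

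The genes were chosen by their level in deficient against sufficient plants. A gene was taken when its mean CPM (its estimated count relative to the library's total, after TMM scaling) under deficiency, after adding 0.1, was at most 1/1.3 of that in sufficient plants in each organ. Its mean in sufficient plants also had to reach 2 CPM in each organ, and every deficient library had to lie below every sufficient library of that organ. Of the 40690 genes in the files, 91 met these terms, and 19241 reached the CPM level in both organs. The root terms alone were met by 891 genes and the shoot terms alone by 1441, so the 91 are 10.2% of the former and 6.32% of the latter. The choice used the deficient and sufficient libraries, so the values of those 12 libraries are given as a description without a test, and the resupplied libraries are the 6 that the choice did not use. Just inside the ratio limit, the 5 closest genes had a weaker ratio of 0.763 to 0.768, and the 5 closest outside had 0.769 to 0.775. A further 164 genes reached both ratios but had overlapping libraries in at least 1 organ.

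Grasses such as maize take up iron by releasing phytosiderophores, small chelators that bind ferric iron in the rhizosphere and are taken back into the root as a complex. Within the plant, iron is needed for haem, iron-sulphur clusters, respiration, chlorophyll synthesis and photosynthetic electron transport, and surplus iron is held in ferritin. The series title names strigolactones, plant hormones made from carotenoids, and the comparison of conditions asks which genes follow the iron supply. The files give W22 gene identifiers without names, and 0 of them are found in the table of 49888 genes of another inbred, B73 (assembly NAM-5.0), that was used to look up names. No role can therefore be attached to any of the 91 genes, the identities of the root and shoot samples could not be checked against named markers, and no sequence is shown. No 2 of the 91 carry consecutive identifier numbers, and the closest pair is 7 numbers apart.

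Libraries held 63058129 to 78431980 estimated counts in roots and 69390438 to 84318039 in shoots, and the labels give no batch. All 91 genes passed the filter on low counts in each test below. Sufficient root library 3 stood apart in its signal from shoot-preferring genes, and its effect on the root values is given beside the summaries below.

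Under deficiency the 91 genes together went from 0.444 to 0.475% of all counts in sufficient roots to 0.229 to 0.256% in deficient roots. In shoots they went from 0.780 to 0.822% to 0.587 to 0.601%. Most of the differences were modest: the median gene was 1.51-fold lower in roots, in a range of 1.3 to 4.27, and 1.49-fold lower in shoots, in a range of 1.3 to 4.98. Only 6 genes were at least 2-fold lower in both organs, 8 more reached 2-fold in roots alone and 8 in shoots alone, and 69 stayed under 2-fold in both. In bulk tissue, fewer cells of a type and less RNA per cell cannot be told apart as the source of such a difference. Without sufficient root library 3 the median in roots was 1.48-fold, 12 genes in place of 14 reached 2-fold there, and 6 still did so in both organs.

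**Figure D1:**
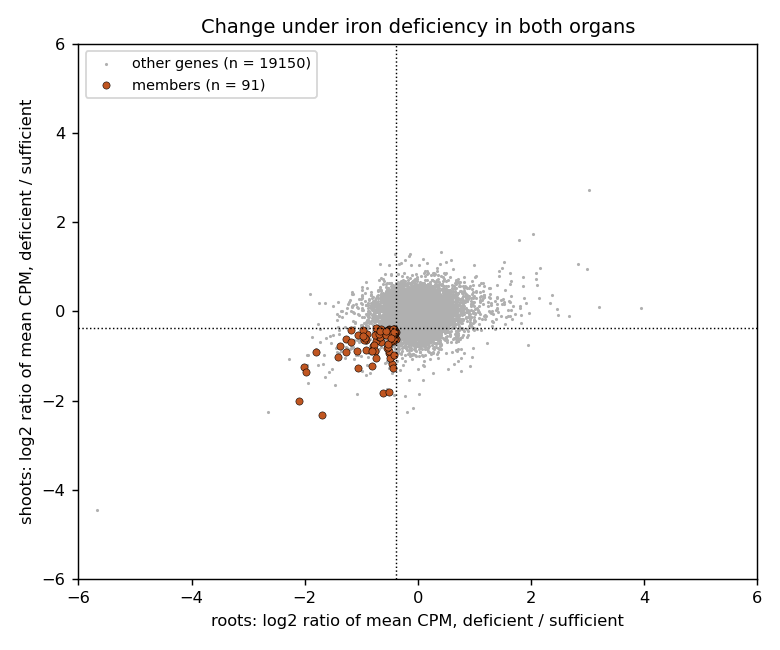
Each point is a gene with at least 2 CPM in sufficient roots and shoots; the axes give the log2 ratio of mean CPM, deficient over sufficient, in roots (x) and shoots (y), and the dotted lines mark the ratio limit of 1/1.3. The 91 genes of the set lie below and to the left of both lines by construction, and grey points in that corner are genes with overlapping libraries.

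The difference was also read in new lists of genes, each chosen without the libraries it was read in. All of these libraries had a part in choosing the 91. The terms were applied with 1 replicate number left out of the 4 deficient and sufficient groups, and the resulting genes were then read in the left-out replicate. Without replicate 1, 187 genes met the terms, and in replicate 1 itself 118 of them, or 63.1%, were lower in the deficient than in the sufficient library of both organs, against 21.9% of all genes at the CPM level. Without replicate 2 these values were 195 genes and 127, or 65.1%, against 24.6%. Without replicate 3 they were 157 genes and 115, or 73.2%, against 26.2%. The left-out libraries thus showed the direction for most genes of each list, each time in a larger share than among genes at large. In roots alone the shares were 69, 75.4 and 82.8%, against 47.2, 48.2 and 52.3%. In shoots alone they were 90.9, 85.1 and 86%, against 49.6, 51.2 and 48%. Each reading sets 1 deficient library against 1 sufficient library per organ, and that of replicate 3 includes sufficient root library 3. Median log2 ratios in the left-out libraries were -0.26, -0.33 and -0.39 in roots and -0.60, -0.41 and -0.55 in shoots, where genes at large had medians between -0.013 and 0.021. These lists held 71, 80 and 61 of the 91 genes, so they are not the same set. For those shared genes the direction in the left-out libraries was fixed by the choice of the 91. The shares therefore describe the lists and are no test of the 91.

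The lowest levels relative to sufficient plants, averaged over the organs, were those of Zm00004b034649. Its root libraries read 25.7, 25.2 and 28.8 CPM in sufficient, 4.44, 6.66 and 7.32 in deficient and 21.3, 28.3 and 39.8 in resupplied plants. Its shoot libraries read 13.9, 5.64 and 5.20 CPM in sufficient, 2.22, 2.35 and 1.34 in deficient and 4.09, 7.06 and 4.48 in resupplied plants. The deficient libraries were lowest in both organs without overlap, and in sufficient shoots 1 library stood well above the others. The gene was 4.27-fold lower in deficient roots and 4.04-fold lower in deficient shoots. On resupply it rose in both organs, by a log2 fold change of 2.31 ± 0.23 (SE, edgeR adjusted p = 0.00042) in roots and 1.41 ± 0.38 (adjusted p = 0.037) in shoots. For this gene and those below, the deficient libraries in these tests are those in which the choice found it low. That favours a rise.

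Zm00004b030907 came next and was the gene with the largest fold in shoots, 4.98. In roots it stood at 200, 252 and 279 CPM in sufficient, 68.5, 61.5 and 94.8 in deficient and 289, 194 and 272 in resupplied libraries. In shoots it was scarce, at 6.90, 1.66 and 3.74 CPM in sufficient, 0.666, 0.257 and 1.3 in deficient and 2.52, 2.70 and 1.77 in resupplied libraries. Sufficient and resupplied libraries overlapped in both organs. The root rise on resupply passed the test (log2 fold change 1.77 ± 0.19, SE, edgeR adjusted p = 0.0007), and the shoot difference of 1.64 ± 0.55 did not (adjusted p = 0.096).

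Zm00004b016683 showed the next largest fold in roots after Zm00004b034649, at 4.05. Root libraries gave 274, 324 and 311 CPM in sufficient, 57.6, 67.5 and 99.1 in deficient and 395, 299 and 362 in resupplied plants. Shoot libraries gave 3.19, 2.16 and 3.55 CPM, then 1.29, 1.15 and 1.11, then 1.51, 2.27 and 1.52. In roots the resupplied libraries overlapped the sufficient ones, while in shoots 2 of the 3 resupplied libraries lay below every sufficient one. The root rise was 2.26 ± 0.19 on the log2 scale (SE, edgeR adjusted p = 0.00012), against 0.58 ± 0.29 (adjusted p = 0.29) in shoots.

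The other 3 genes that were at least 2-fold lower in both organs are named for that reason, after their values had been seen. Zm00004b024545 went from 258, 244 and 250 CPM in sufficient roots to 49.5, 57.4 and 83.7 in deficient and 280, 229 and 289 in resupplied roots. In shoots it read 10.4, 7.42 and 8.05, then 3.77, 3.25 and 2.93, then 9.05, 7.72 and 7.11 CPM. Its deficient libraries stood apart from both other groups in each organ, and it rose on resupply in roots (log2 fold change 2.09 ± 0.18, SE, edgeR adjusted p = 0.00012) and in shoots (1.26 ± 0.17, adjusted p = 0.00098). Zm00004b017707 averaged 93.2 ± 12.3, 34.9 ± 6.46 and 68.5 ± 10.6 CPM in sufficient, deficient and resupplied roots (SD, n = 3), and 14.7 ± 2.62, 7.24 ± 1.71 and 18.4 ± 1.05 CPM in shoots. Zm00004b036402 averaged 3.61 ± 0.442, 1.69 ± 0.102 and 3.65 ± 0.254 CPM in roots and 5.05 ± 0.926, 2.02 ± 0.82 and 6.92 ± 2.04 CPM in shoots. Both rose in both organs on resupply, with edgeR adjusted p of 0.0062 and 0.011 in roots and 0.00063 and 0.0037 in shoots.

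**Figure D2:**
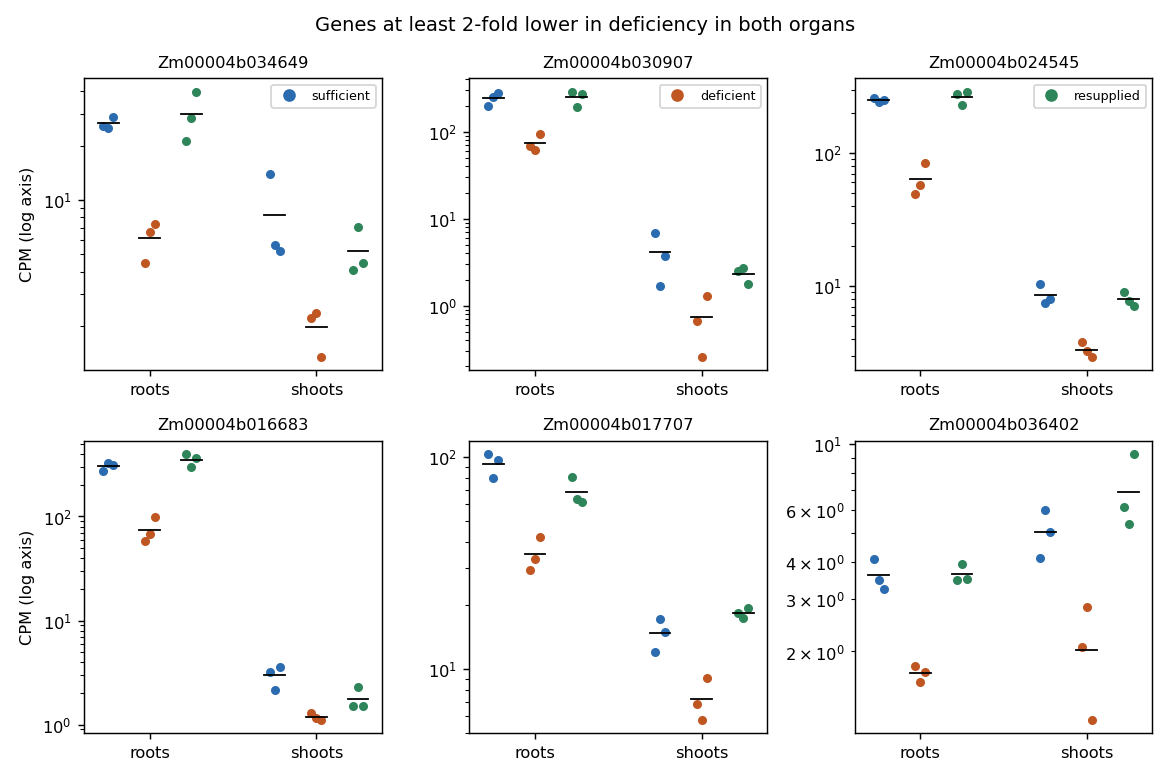
CPM on a log axis of the 6 genes that were at least 2-fold lower under deficiency in both organs; points are libraries, bars are means of 3, and each panel shows sufficient, deficient and resupplied plants from left to right in roots and then shoots. In every panel the deficient points lie below the sufficient ones, and for Zm00004b016683 the resupplied means are 352 CPM in roots and 1.77 CPM in shoots.

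One day after iron was renewed, 29 of the 91 genes had risen against deficient roots and 59 against deficient shoots by edgeR's quasi-likelihood test. The root count is 31.9% of the set, where 1.79% of all genes tested rose. The shoot count is 64.8% of the set, where 4.86% of all genes tested rose. The counts of genes called lower were 0 in each organ by edgeR (0 also at an unadjusted p under 0.05), by DESeq2 and in the authors' deposited tables, where 1.74% of all genes tested by edgeR fell in roots and 3.72% in shoots. In 23 genes the rise was called in both organs, against 0.477% of genes tested in both. A further 36 genes were called in shoots and not in roots, 6 in roots and not in shoots, and 26 in neither. The choice had picked genes that were low in the same deficient libraries, which favours a rise here, so these shares cannot be read as a measure of response free of the choice. The same limit applies to the rises of single genes.

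The 91 genes had a median log2 fold change on resupply of 0.49 in roots and 0.57 in shoots, beside -0.0013 and 0.00070 for all genes tested. Values were above 0 for 86 of the 91 in roots and 87 in shoots. The called rises had a median of 0.98 in roots, in a range of 0.41 to 2.40, and 0.71 in shoots, in a range of 0.29 to 2.66. All 3 resupplied libraries lay above all 3 deficient ones for 52 of the 91 genes in roots, against 10.1% of genes tested, and for 74 in shoots, against 14.4%. The root count of 29 was 19 without deficient root library 2, and was 20 to 31 when any other of the libraries compared was left out. The 23 genes called in both organs were lower under deficiency by a median of 1.68-fold in roots and 1.6-fold in shoots, and the 26 called in neither by 1.48-fold and 1.42-fold.

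**Figure D3:**
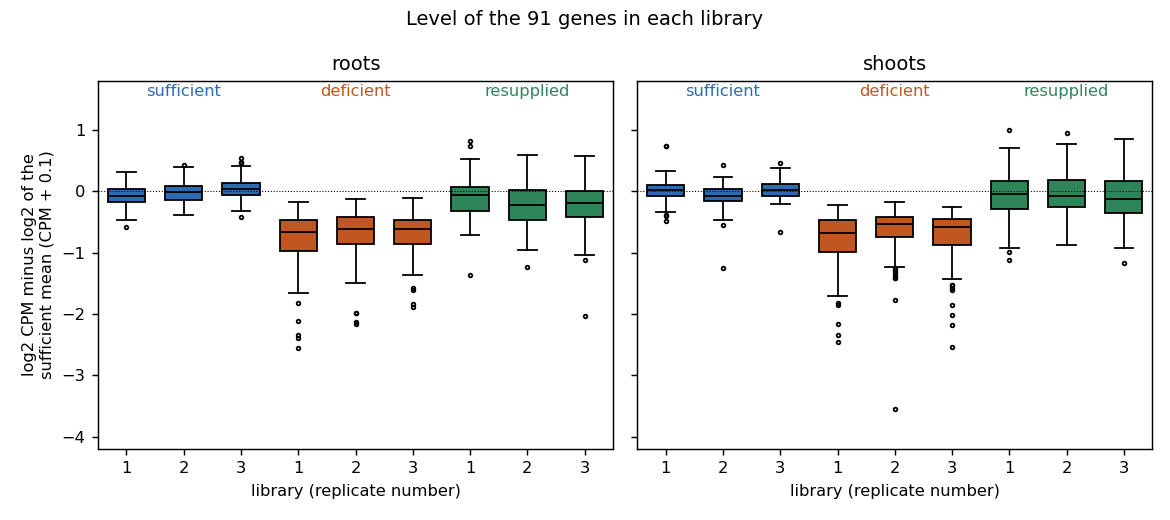
Boxes show the 91 genes in each library (median, quartiles, whiskers to 1.5 times the interquartile range) as log2 CPM minus the log2 of the gene's mean in sufficient plants, with 0.1 CPM added, for roots (left) and shoots (right). Library medians run from -0.67 to -0.61 in deficient and -0.22 to -0.07 in resupplied roots, and from -0.68 to -0.52 in deficient and -0.12 to -0.05 in resupplied shoots.

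Rises were also counted by the size of the difference under deficiency. All 6 genes that were at least 2-fold lower in both organs rose in roots on resupply and 4 of them rose in shoots. Of the 8 that reached 2-fold in roots alone, 6 rose in roots and 6 in shoots. Of the 8 that reached 2-fold in shoots alone, 0 rose in roots and 6 in shoots. Of the 69 that stayed under 2-fold, 17 rose in roots and 43 in shoots. Larger differences are also called more easily, and the deficient libraries are shared, so these counts are a description.

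The largest root rise was that of Zm00004b005944, a scarce gene. Its root libraries read 2.47, 2.93 and 2.73 CPM in sufficient, 0.552, 0.925 and 0.660 in deficient and 4.62, 3.21 and 3.28 in resupplied plants. All resupplied root libraries were above all sufficient ones, yet the difference from sufficient roots did not pass the test (log2 fold change 0.45 ± 0.26, SE, edgeR adjusted p = 0.63). The rise from deficient roots was 2.40 ± 0.28 on the log2 scale (adjusted p = 0.00093), and in shoots it was 1.41 ± 0.25 (adjusted p = 0.0045).

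The largest shoot rises were those of Zm00004b000296 and Zm00004b011805. Zm00004b000296 read 17.0, 20.1 and 18 CPM in sufficient, 3.54, 6.83 and 5.04 in deficient and 29.8, 35.5 and 31.4 in resupplied shoots. The 3 groups did not overlap, with resupplied shoots highest, and the rise from deficient shoots was 2.66 ± 0.19 on the log2 scale (SE, edgeR adjusted p = 1.5e-05). In roots its libraries read 5.60, 6.01 and 9.35, then 4.67, 4.34 and 4.54, then 8.86, 6.96 and 5.77 CPM, and the difference on resupply did not pass (0.70 ± 0.22, adjusted p = 0.11). Zm00004b011805 read 3.32, 3.80 and 3.91 CPM in sufficient, 0.744, 1.47 and 0.735 in deficient and 3.98, 5.08 and 3.52 in resupplied shoots, a rise of 2.10 ± 0.29 (adjusted p = 0.0011). Its root libraries were at 9.84, 11.0 and 9.88, then 7.95, 7.08 and 6.42, then 8.58, 7.59 and 8.78 CPM. Resupplied roots lay between the other groups and overlapped the deficient ones, with a log2 difference from them of 0.25 ± 0.13 (adjusted p = 0.35).

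Whether the change on resupply differed between organs was tested by an interaction contrast, roots minus shoots, fitted over the whole set of 18 libraries. It was called for 6 of the 91 genes. The root effect was the smaller in 5, where 0.792% of all genes tested were called in that direction, and the larger in 1, where 0.659% were. The gene with the larger root effect was Zm00004b016683, with a difference of 1.65 ± 0.31 on the log2 scale (SE, edgeR adjusted p = 0.014). The most negative differences were those of Zm00004b000296 (-1.98 ± 0.32, adjusted p = 0.0048) and Zm00004b011805 (-1.88 ± 0.31, adjusted p = 0.0066). For the remaining 85 genes a difference between organs did not pass the test, which does not show that the organs changed alike. The deficient libraries of both organs enter this contrast and were used by the choice, so its calls are not free of the choice.

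**Figure D4:**
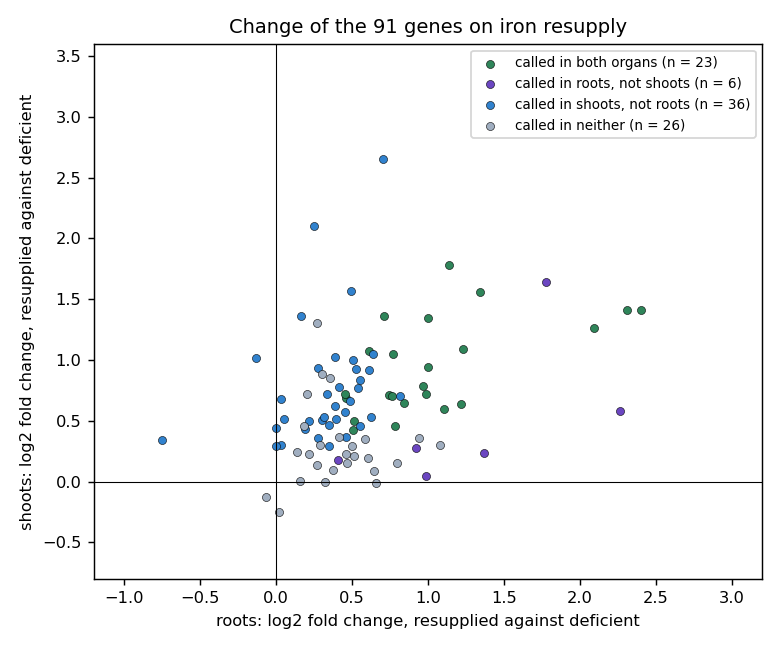
Log2 fold change of each of the 91 genes, resupplied against deficient, in roots (x) and shoots (y), coloured by where edgeR called the rise. Of the 91 points, 86 lie to the right of 0 and 87 above 0, with Zm00004b000296 at 0.70 in roots and 2.66 in shoots.

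Against sufficient plants, resupplied roots showed no called difference among the 91 genes. The counts were 0 higher and 0 lower by edgeR, where 0.64% of genes tested were called higher and 0.102% lower, with 2 higher and 19 lower at an unadjusted p under 0.05. DESeq2 called 0 higher and 5 lower, where 1.54% and 0.725% of genes tested were. An edgeR fit over all 18 libraries also called 5 lower, where 0.401% of genes tested were. The authors' deposited table lists 1 higher and 6 lower, where 1.74% and 0.733% of its genes are. Resupplied roots stood at a median of 89.6% of the sufficient mean, with the middle of the set between 80.0% and 101% and the extremes at 41.2% and 136%. The fitted log2 difference was below 0 for 64 genes, with a median of -0.15 beside -0.00097 for all genes tested, and the sufficient libraries are shared with the choice, which had picked genes high in them. In 25 genes the resupplied root mean was above the sufficient mean, and in 6 it was below even the deficient mean. Without sufficient root library 3 the median level was 92.7% of sufficient, 28 genes were above it, the median log2 difference was -0.11, and the calls were again 0 in each direction.

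Resupplied shoots differed from sufficient shoots at 17 of the 91 genes. Here 12 genes were called lower, or 13.2%, where 5.47% of all genes tested were, and 5 were called higher, or 5.49%, where 4.05% were. These counts were small and moved with single libraries: the 12 became 5 when sufficient library 3 or resupplied library 2 was left out, and 6 when resupplied library 1 or 3 was. The 5 became 2 on leaving out library 3 of either group, and 3 on leaving out sufficient library 1 or resupplied library 2. With total counts, 8 genes were higher and 7 lower, where 9.22% and 3.62% of all genes tested were. That scaling shifts the median of all genes in this comparison by 0.101 on the log2 scale. The median shoot level after resupply was 93.0% of the sufficient mean, in a range of 56.8 to 175%. The sufficient shoot libraries are shared with the choice, which had picked genes high in them. That favours lower calls and a median below the sufficient level here.

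The 5 genes called higher than in sufficient shoots stood at 139 to 175% of the sufficient mean. Each had also risen against deficient shoots, where the choice had put their level below the sufficient one. They were Zm00004b000296, Zm00004b029121, Zm00004b023087, Zm00004b001535 and Zm00004b030608, the last 3 named after their values had been seen because the count is small. Zm00004b029121 read 31.8, 47.2 and 45.7 CPM in sufficient, 26.4, 26.0 and 21.5 in deficient and 83.5, 68.1 and 66.9 in resupplied shoots. Every resupplied library was above every sufficient one, by 0.81 ± 0.15 on the log2 scale (SE, edgeR adjusted p = 0.0059). In resupplied roots the gene stood at 12.6, 12.7 and 12.5 CPM, inside the sufficient range of 11.7 to 15.9. Zm00004b023087 went from 92.4, 86.0 and 78.9 CPM in sufficient to 37.3, 64.8 and 47.0 in deficient and 141, 147 and 151 in resupplied shoots (0.77 ± 0.15 above sufficient, adjusted p = 0.009). In roots it read 45.9, 49.7 and 62.1, then 17.1, 21.5 and 21.8, then 51.4, 48.7 and 49.6 CPM, and the resupplied libraries lay inside the sufficient range there. Whether the excess over sufficient plants differed between organs was not tested. The call for Zm00004b000296 against sufficient shoots (0.81 ± 0.18, adjusted p = 0.016) was lost when sufficient library 1 or 3, or resupplied library 2 or 3, was left out, at adjusted p of 0.052 to 0.063.

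The 12 genes called lower than in sufficient shoots stood at 58.6 to 83.3% of the sufficient mean, and only 2 of them had risen against deficient shoots. Zm00004b036103 read 101, 86.4 and 87.2 CPM in sufficient, 50.3, 51.0 and 48.0 in deficient and 55.7, 61.6 and 51.1 in resupplied shoots. It stayed near the deficient level there, -0.70 ± 0.09 log2 units from sufficient shoots (SE, edgeR adjusted p = 0.001). In roots it rose against deficiency by 0.41 ± 0.09 (adjusted p = 0.033), with 51.1, 60.4 and 60.0 CPM in sufficient, 32.1, 34.0 and 31.8 in deficient and 42.9, 40.2 and 44.0 in resupplied libraries, which lay between the other groups without overlap. Zm00004b000930 had the most negative difference, -0.77 ± 0.20 (adjusted p = 0.032), at 8.32, 7.79 and 10.7 CPM in sufficient, 6.35, 5.57 and 6.84 in deficient and 4.06, 4.81 and 6.82 in resupplied shoots. Its resupplied libraries overlapped the deficient ones, and its call was lost with total-count scaling (adjusted p = 0.053), when sufficient library 1 or 3 was left out (0.063 and 0.13) and when resupplied library 1 or 2 was (0.1 and 0.11). In roots it also showed no change on resupply that passed the test, with 42.2, 45.6 and 48.7, then 31.7, 35.6 and 35.0, then 31.7, 38.6 and 31.2 CPM.

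The 91 genes leaned towards the shoot in level. In sufficient plants their median was 13.8 CPM in roots, where the 19241 genes at the CPM level had 20.7, and 30.4 CPM in shoots, where those genes had 22. Genes with at least 8 times the CPM in one organ, after adding 0.1 CPM, are called preferring here: 19 of the 91, or 20.9%, were shoot-preferring against 4.02% of the genes at the CPM level, and 3, or 3.3%, were root-preferring against 1.32%. Both counts were the same for these 91 genes with sufficient root library 3 left out of the root mean. The set was not chosen again for this. The 19 had medians of 4.80 CPM in sufficient roots and 179 CPM in sufficient shoots. The 69 that preferred neither organ had medians of 20.9 and 21.1 CPM. In resupplied plants, which the choice did not use, 20 and 3 of the 91 met this definition, with no share of all genes counted. There edgeR called 52 of the 91 higher in shoots, or 57.1%, where 32.5% of all genes tested were, and 32 higher in roots, or 35.2%, where 33.6% were. Total counts shift the median of all genes by 0.319 log2 units towards roots. With them 45 were higher in shoots, where 23.7% of all genes tested were, and 34 in roots, where 45.7% were.

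The 3 root-preferring genes, Zm00004b016683, Zm00004b030907 and Zm00004b024545, were all among the 6 that were at least 2-fold lower in both organs. Their root levels in sufficient plants were 244 to 303 CPM and their shoot levels 2.97 to 8.62 CPM. In resupplied plants Zm00004b016683 and Zm00004b030907 were higher in roots by 7.63 ± 0.26 and 6.75 ± 0.48 log2 units (SE, edgeR adjusted p = 4.1e-13 and 2.7e-09). After resupply the roots of Zm00004b016683, Zm00004b030907 and Zm00004b024545 stood at 116%, 103% and 106% of the sufficient mean. Their shoots stood at 59.6%, 56.8% and 92.3%, and of these shoot levels only that of Zm00004b024545 had risen against deficient plants by the test. The shoot values rest on few CPM. The 100 most abundant other root-preferring genes summed to 39947 to 42278 CPM in sufficient roots and 1216 to 1508 CPM in sufficient shoots. Of these 100, 42 had a lower mean in deficient than in sufficient shoots, and 15 reached the 1.3-fold limit there. The part of root-derived signal in the shoot values of the 3 genes was not tested.

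The most abundant genes of the set, Zm00004b005309 and Zm00004b030894, were shoot-preferring. Zm00004b005309 read 2366, 2143 and 2240 CPM in sufficient, 1288, 1265 and 1126 in deficient and 1507, 1484 and 1507 in resupplied shoots. It rose on resupply by 0.29 ± 0.07 log2 units (SE, edgeR adjusted p = 0.025) and stayed 0.58 ± 0.07 below sufficient shoots (adjusted p = 0.00082). In roots the same gene read 14.4, 16.2 and 29.0 CPM in sufficient, 11.6, 13.5 and 9.16 in deficient and 15.5, 8.42 and 9.59 in resupplied libraries. Sufficient root library 3 was the highest there. Zm00004b030894 went from 1239, 1082 and 979 CPM to 829, 781 and 734 and then 978, 982 and 815 in shoots, where resupplied libraries overlapped the sufficient ones. Its root libraries read 9.83, 9.56 and 14.3, then 8.36, 8.56 and 8.24, then 10.9, 8.20 and 7.99 CPM.

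Of the 19 shoot-preferring genes, 13 rose on resupply in shoots, where 4.86% of all genes tested did. In roots 0 of the 19 rose, where 1.79% of all genes tested did, and 17 had values above 0. Their median in sufficient plants was 4.80 CPM in roots and 179 CPM in shoots, so these counts do not compare the organs. The deficient libraries were used by the choice, which favours a rise. In resupplied plants the shoot excess was largest for Zm00004b024224, at 429, 451 and 380 CPM in shoots and 1.21, 2.08 and 0.719 CPM in roots (log2 difference, root minus shoot, -8.31 ± 0.28, SE, edgeR adjusted p = 3e-13). In sufficient roots it read 3.00, 2.96 and 3.78 CPM and in deficient roots 2.45, 2.11 and 2.34, so its resupplied root libraries were the lowest of the 3 groups. That root difference from deficient libraries did not pass the test (-0.75 ± 0.34, adjusted p = 0.27). In shoots it rose by 0.34 ± 0.07 (adjusted p = 0.011).

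The root values of shoot-preferring genes were set beside those of the 100 most abundant other shoot-preferring genes, all 100 of which had counts in roots. Their summed level was 1286, 1450 and 2725 CPM in sufficient, 1612 to 1798 in deficient and 1484 to 1648 in resupplied root libraries. Sufficient library 3 was thus far above the others, and the list's sum was 0.488 to 1.03% of its shoot level in sufficient roots and 0.988 to 1.10% in deficient roots. The 19 genes of the set stood at a median of 4.86% of their shoot level in sufficient roots, and the genes of the list at a median of 0.379%. The lowest of the 19 was at 0.708%. Of the 19, 3 were at or under 1.03%, the list's sum in sufficient library 3: Zm00004b024224, Zm00004b005309 and Zm00004b030894. Of the 100 other genes, 84 had a lower mean in deficient than in sufficient roots with all libraries and 25 without sufficient library 3, with median log2 ratios of -0.69 and 0.25. All 19 genes of the set were lower both ways, with medians of -0.53 and -0.47. That direction was fixed by the choice, which had put every deficient root library below every sufficient one. The list of 100 was not chosen in this way, so direction cannot be compared between them. Of the 19, 12 still reached the 1.3-fold limit without that library. Among the other 72 genes, 65 still reached it. Leaving this library out of these lists was decided after the data had been seen. Applied without it, the terms of choice were met by 92 genes, 77 of them among the 91. The part of shoot-derived signal in the root values of these genes was not tested beyond these measurements.

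**Figure D5:**
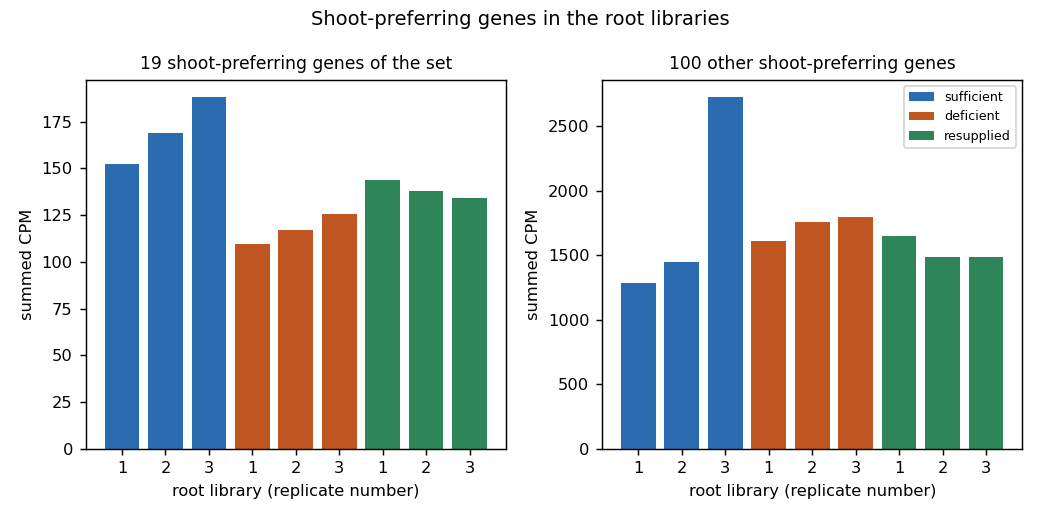
Summed CPM in each root library of the 19 shoot-preferring genes of the set (left) and of the 100 most abundant other shoot-preferring genes (right); bars start at 0 and are coloured by condition. The left sums are 152 to 188 CPM in sufficient and 110 to 126 CPM in deficient roots, apart by the terms of choice. On the right sufficient library 3 stands alone at 2725 CPM.

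The authors' deposited table gives 41 of the 91 as higher in resupplied than in deficient roots, where 4.7% of its genes are, and that for shoots gives 68, where 7.74% are. Its median log2 fold changes for the 91 are 0.39 in roots and 0.53 in shoots.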

How the data were processed

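RNA-seq of W22 maize roots and shoots comprised 18 libraries, 3 in each of 6 groups taken from the sample titles. The authors deposited estimated counts per gene for each library, whole numbers as deposited and rounded before testing without effect. Per the submitters' processing notes, the tools were DESeq2, StringTie, HISAT2 and Trim Galore. The build, like the gene models and tool versions, was not given in the sources used here, and plants per library were not stated. The authors also deposited 6 comparison tables which, per the file headers, hold a base mean (a normalised signal), a log2 fold change, its standard error and Wald score, and a p-value with its adjusted value.

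CPM were computed after TMM scaling over all 18 libraries, without a filter. Tests used edgeR 4.0.16 in R 4.3.3: quasi-likelihood F-test, TMM, filterByExpr, Benjamini-Hochberg adjustment over all genes tested, threshold 0.05, with group as the only term. The 9 libraries of an organ shared a fit, and comparisons between organs used all 18. Rose, fell and called refer to this test. Standard errors derive from the F statistic. DESeq2 1.42.0 served as an alternative. The steps were tested on simulated data.

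The genes and lists were chosen with earlier results of these data known. Genes are named by a rule: the most lowered in each organ and over both, the largest called changes in each direction per comparison, and the highest levels; exceptions are marked. Depth was similar across libraries; totals may overstate fragments, since low counts pile up at multiples of 4 in these files. Reads shared between near-identical gene copies were not examined.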

Additional observations from a re-analysis of the deposited data

Results flagged for a closer look

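For 6 of the 91 genes the change on resupply differed between roots and shoots by the interaction test (edgeR, log2 fold change in roots minus that in shoots), and they are listed here for that reason. The difference was -1.98 for Zm00004b000296, -1.88 for Zm00004b011805, -1.23 for Zm00004b018574, -1.18 for Zm00004b023624, -1.10 for Zm00004b029121 and 1.65 for Zm00004b016683, with adjusted p between 0.0048 and 0.017. Zm00004b018574 read 4.43, 7.07 and 6.65 CPM in deficient and 15.5, 17.3 and 13.7 in resupplied shoots, but 9.09, 8.10 and 7.38 in deficient and 7.78, 8.77 and 10.4 in resupplied roots. Zm00004b023624 read 5.44, 7.48 and 7.30 CPM in deficient and 13.4, 12.1 and 15.4 in resupplied shoots, but 2.54, 2.92 and 3.46 in deficient and 2.64, 2.81 and 2.51 in resupplied roots. In both genes the shoot groups did not overlap and the root groups did. The deficient libraries in this test were also used by the choice.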

How the results depend on the processing

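The set depends on its terms: 26 genes met a ratio of 1/1.5, 61 met the terms with total counts (43 of the 91), and 92 to 154 met them without 1 library (154 without sufficient root library 1 and 137 without deficient root library 3); without replicate 1, 2 or 3 in all groups they were 187, 195 and 157. The rises on resupply numbered 19 to 31 in roots and 42 to 50 in shoots without 1 library, and 0 genes were called lower there under any alternative run. Resupplied against sufficient roots, the lower calls were 1 with total counts, 5 with DESeq2, 5 with all 18 libraries in 1 fit and 6 in the authors' deposited table, which also gave 1 higher; without 1 library both counts were 0. In shoots the higher calls were 8 with total counts, where 9.22% of all genes tested were, and 11 in the authors' deposited table, where 6.1% are. Without 1 library they were 2 to 4. The lower calls were 7 with total counts, where 3.62% were, and 7 with all 18 libraries, where 2.53% were. Without 1 library the lower calls were 5 to 13. The larger root effect on resupply was called for 4 genes with DESeq2 and for 1 to 3 without 1 library, and the smaller one for 4 to 6. The median difference between organs, -0.04, was 0.06 with total counts. Organ calls in resupplied plants were 31 to 32 higher in roots and 49 to 52 higher in shoots without 1 library.

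Replicate numbers shared between groups did not pair the libraries: correlations of same-numbered deviations were -0.099 to 0.106. With the replicate block, 24 genes rose in roots and 60 in shoots, and the larger root effect was called for 2 genes. Named genes kept their direction in all 229 checks and lost their call in 9, all in resupplied against sufficient shoots. Depth limits the scarce genes most: 7 of the 91 stayed under 10 CPM in both organs of sufficient plants, and differences in them that did not pass the test may lie below what 3 libraries can show.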
